A study of Mus musculus with 6 samples.

Results

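A set of 9 transcription factors that set up and maintain the hepatocyte program were examined in liver tumors of WT and Nr2e3-/- mice: the forkhead factors Foxa1, Foxa2 and Foxa3, the CCAAT/enhancer-binding proteins Cebpa, Cebpb and Cebpd, the cut-homeodomain factors Onecut1 and Onecut2, and the homeodomain factor Prox1. They were taken from the count table by their gene symbols, which gave 9 of its 24063 genes, and all 9 were among the 13572 genes that passed the filter on low counts. The tumors came from male C57BL/6 mice, 3 WT (NR2E3+/+) and 3 Nr2e3-/-, with 1 library per mouse. At 15 days of age all 6 mice received the liver carcinogen diethylnitrosamine (DEN) at 25 mg per kg, and they were examined at the 24-week time point. The samples used here hold no untreated liver, so each level refers to DEN-induced tumor tissue. The knockout is not described as limited to hepatocytes, and neither the number of tumor nodules per library nor the litters of the mice are given.

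Foxa factors are known as pioneer factors: they bind closed chromatin and open it for other regulators, first in the embryonic liver bud and later at hepatocyte genes. C/EBPα (Cebpa) is associated with differentiated, resting hepatocytes and with metabolic genes. C/EBPβ (Cebpb) and C/EBPδ (Cebpd) bind the same DNA motif as C/EBPα and are known to be induced in the liver by interleukin-6 and other inflammatory signals. Onecut1 (also called HNF6) and Onecut2 act in liver and bile duct development, and Prox1 is required for the outgrowth of the liver bud and for lymphatic vessels.

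Promoter sequences of 7 of the 9 factors, 10 windows in all because Foxa2 and Prox1 have several annotated starts, were found in RefSeq (GRCm38.p6, the build called mm10), and Cebpd and Onecut2 were not among them. The 250 bases before each start were searched on both strands for simple motifs. For basal elements, these were the box named for TATA, spelled TATAAA here, and the one spelled CCAAT. The half-site of the cAMP response element (CRE) was spelled TGACG. For the GC box of the kind bound by Sp1, the letters were GGGCGG. Forkhead motifs were searched as TGTTTNC and Onecut motifs as ATNGAT. The C/EBP motif was written as TTGCNNAA, and the STAT motif as TTCNNNGAA. The windows of 4 starts are printed 5′ to 3′ on the strand of the gene: those of Cebpa and Cebpb, whose levels differed in opposite directions between the genotypes, and those of Foxa1 and Prox1, which hold a FOXA match and whose levels also differed in opposite directions. Capitals mark TATA, CRE half-site and FOXA matches.
Cebpa, chr7:35119043-35119292, plus strand: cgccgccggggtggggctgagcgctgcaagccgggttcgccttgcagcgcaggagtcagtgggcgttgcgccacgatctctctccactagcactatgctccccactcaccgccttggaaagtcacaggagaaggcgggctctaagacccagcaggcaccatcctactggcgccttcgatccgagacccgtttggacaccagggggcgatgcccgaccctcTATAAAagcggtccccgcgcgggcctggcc
Cebpb, chr2:167688665-167688914, plus strand: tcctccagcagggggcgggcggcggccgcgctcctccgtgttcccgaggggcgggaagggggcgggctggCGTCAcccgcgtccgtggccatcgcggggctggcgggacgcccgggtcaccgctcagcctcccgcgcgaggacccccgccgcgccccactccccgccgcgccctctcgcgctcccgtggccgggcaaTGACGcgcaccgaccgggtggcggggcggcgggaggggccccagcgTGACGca
Foxa1, chr12:57546112-57546361, minus strand: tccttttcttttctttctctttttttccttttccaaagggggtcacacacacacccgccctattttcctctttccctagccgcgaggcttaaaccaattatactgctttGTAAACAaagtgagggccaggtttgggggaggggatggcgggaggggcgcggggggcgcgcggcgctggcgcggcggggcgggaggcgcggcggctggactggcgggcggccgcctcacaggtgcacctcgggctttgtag
Prox1, chr1:190169516-190169765, minus strand: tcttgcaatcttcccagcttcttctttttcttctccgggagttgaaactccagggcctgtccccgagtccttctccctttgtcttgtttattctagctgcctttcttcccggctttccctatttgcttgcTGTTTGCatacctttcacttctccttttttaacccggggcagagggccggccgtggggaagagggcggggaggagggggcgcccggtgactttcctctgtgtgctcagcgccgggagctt
The Cebpa window held a TATA box that begins 30 bases before the start, and no match to the other motifs. The Cebpb window held 3 CRE half-sites, which begin 180, 53 and 7 bases before the start, and 5 GC boxes, of which the first 2 overlap each other. A CRE half-site was present in 17.8% of all 32851 RefSeq promoter windows of this length, a GC box in 32.7% and a TATA box in 12.4%. The FOXA match began 141 bases before the start in Foxa1 and 120 bases before it in Prox1, and such a match was present in 17.8% of all windows. Both of these windows lie inside the annotated span of their gene, before a start that is not the outermost one. The other Prox1 window, chr1:190170828-190171077, held a TATA box and 2 GC boxes and no FOXA match. None of the 10 windows of these factors matched the C/EBP or the STAT motif, which were present in 9.56% and 7.02% of all windows.

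Total counts per library ranged from 15376261 to 28690279, the lowest being Nr2e3-/- replicate 1. Levels are given as normalized CPM (counts per 1000000), for which each library size was scaled by TMM. Nr2e3 itself had 0 counts in all 6 libraries, which allows up to 0.199 CPM in the shallowest library by counting error alone, and it therefore gives no check of the genotype labels. Nr2e3-/- replicate 1 lay nearest to the WT mean among the 3 Nr2e3-/- libraries for 51.8% of the genes tested, against 25.4% and 22.9% for replicates 2 and 3, and results are therefore also given without it. Among the 9 factors it lay nearest for 4, as did replicate 2. It was singled out by the same values that the comparison uses, so leaving it out favours larger differences, and calls made without it are a description and no independent support. Hepatocyte markers were abundant in every library: a list of 8, among them Alb and Ttr, summed to between 151300 and 183900 CPM in WT and between 138800 and 160500 CPM in Nr2e3-/- tumors.

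Foxa1, Cebpa and Onecut2 were lower in every Nr2e3-/- library than in every WT library, and Cebpb and Prox1 were higher in every Nr2e3-/- library. The groups overlapped for the other 4. Groups that did not overlap were thus found for 5 of the 9 factors, against 26.8% of all genes tested (13.9% higher and 12.9% lower). By edgeR's quasi-likelihood F test, 6 of the 9 passed 0.05 before adjustment, with Cebpb, Cebpd and Prox1 higher and Foxa1, Cebpa and Onecut2 lower. Of all genes tested, 21.5% did so, 11.8% higher and 9.72% lower. After Benjamini-Hochberg adjustment over all genes, 0 of the 9 passed 0.05, against 0.0958% of all genes (0.0663% higher and 0.0295% lower). On the same 6 libraries, DESeq2 called the same 6 factors, against 7.93% of all genes with an adjusted p-value (4.87% higher and 3.06% lower), and limma-voom with sample weights called 5 of them (Onecut2 was left out, adjusted p = 0.0559), against 17.4% of all genes (9.48% higher and 7.91% lower). Without Nr2e3-/- replicate 1, edgeR called Cebpb, Cebpd, Prox1, Foxa3, Foxa1 and Cebpa, against 21.8% of all genes (12.2% higher and 9.65% lower), whereas 0 of the 9 were called by edgeR without any other single library. The differences below are therefore described as measured values and not as established changes.

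**Figure D1:**
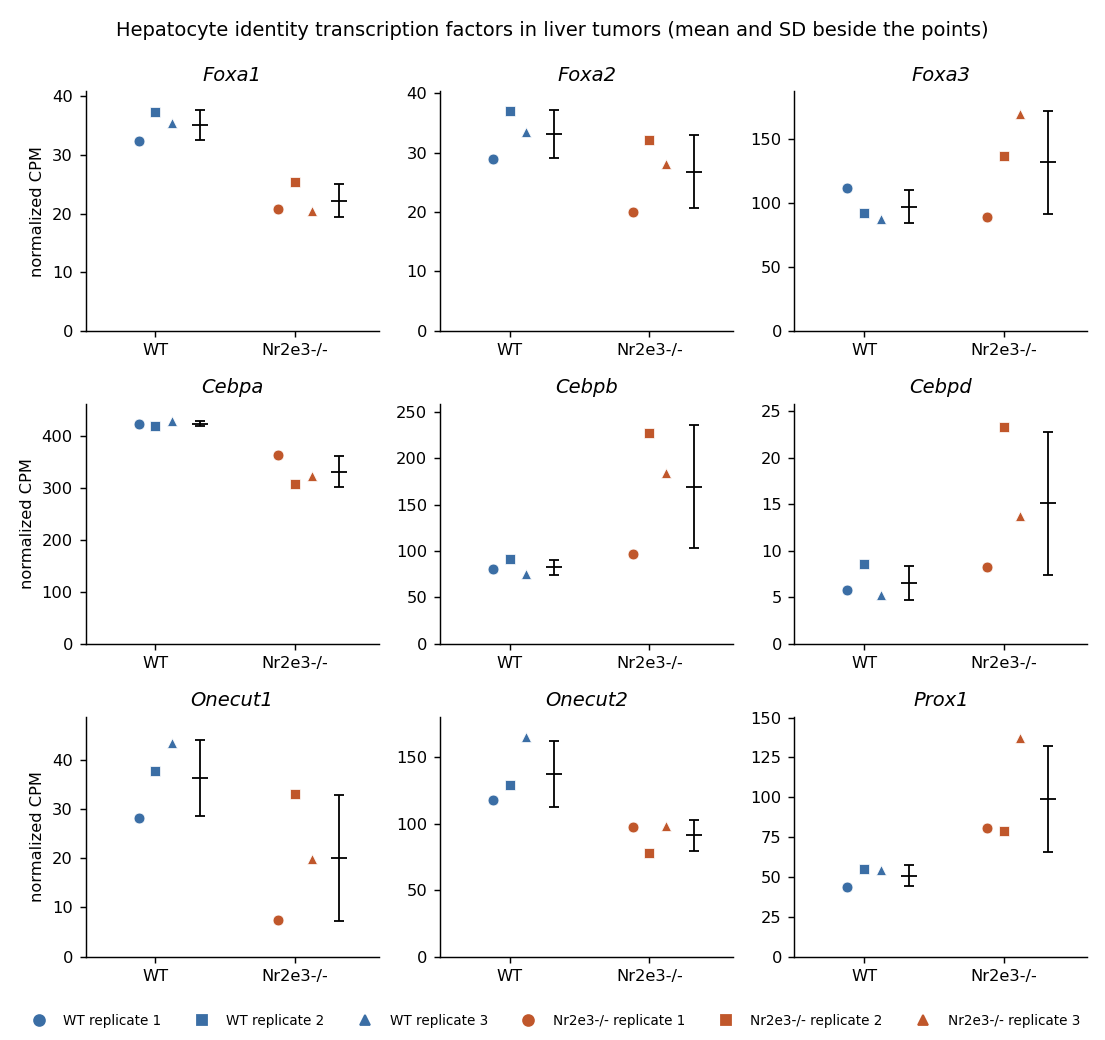
Normalized CPM (y axes, starting at 0) of the 9 factors in each WT and Nr2e3-/- tumor library; marker shapes give the replicate, and the bars beside the points are the mean and SD of 3 libraries. Foxa1, Cebpa and Onecut2 were lower and Cebpb and Prox1 higher in all 3 Nr2e3-/- libraries, and Nr2e3-/- replicate 1 had the lowest Cebpb, 96.9 CPM, among the Nr2e3-/- libraries.

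Within the C/EBP family, Cebpa was lower and Cebpb higher in Nr2e3-/- tumors. Cebpa is a gene without introns on chromosome 7 (35119293 to 35121928, plus strand, GRCm38, the build of all positions here). In WT tumors Cebpa reached 422, 419 and 428 CPM, against 363, 307 and 322 CPM in Nr2e3-/- replicates 1 to 3. The WT libraries lay close together, with a mean of 423 ± 4.52 CPM (SD, n = 3), and all Nr2e3-/- libraries lay below them, with a mean of 331 ± 29.4 CPM (SD, n = 3). The log2 fold change of Cebpa was -0.36 ± 0.11 (SE, edgeR adjusted p = 0.152), and -0.42 without Nr2e3-/- replicate 1 (adjusted p = 0.0334). Without each of the other libraries in turn, the edgeR adjusted p of Cebpa was between 0.236 and 0.407.

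Cebpb, also without introns, lies on chromosome 2 (167688915 to 167690418, plus strand). Its single mRNA is known to give a long activating and a short inhibitory protein, which counts per gene cannot tell apart. The Cebpb level was 80.3, 91.6 and 75.2 CPM in the 3 WT tumors, compared with 96.9, 227 and 184 CPM in Nr2e3-/- replicates 1 to 3. Replicates 2 and 3 stood well above WT, whereas replicate 1 stood just above the highest WT library. Its log2 fold change was 1.04 ± 0.29 (SE, edgeR adjusted p = 0.131), a 2.06-fold difference, and 1.33 without Nr2e3-/- replicate 1 (adjusted p = 0.00329). Without Nr2e3-/- replicate 2, the log2 fold change was 0.77 (edgeR adjusted p = 0.208), and without each of the other 4 libraries the adjusted p was between 0.285 and 0.376.

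Cebpd, on chromosome 16 (15887286 to 15891031, plus strand), had the same order of libraries as Cebpb within each genotype, at a far lower level. Cebpd stood at 5.76, 8.56 and 5.20 CPM in the WT libraries, whereas Nr2e3-/- replicates 1 to 3 had 8.21, 23.4 and 13.7 CPM. The groups overlapped, since Nr2e3-/- replicate 1 lay below WT replicate 2. The log2 fold change of Cebpd was 1.22 ± 0.38 (SE, edgeR adjusted p = 0.153), 1.52 without Nr2e3-/- replicate 1 (adjusted p = 0.0165) and 0.76 without replicate 2 (adjusted p = 0.25).

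Both genes share exon sequence with an annotated gene on the other strand, Cebpb with Tmem189 over 312 bases and Cebpd with Spidr over 562 bases, and the use of strand in the counting is not given in the sources used here. Tmem189 had a log2 fold change of -0.10 ± 0.27 (SE) at a WT mean of 12.2 CPM, with overlapping groups, and Spidr 0.42 ± 0.16 (SE) at 4.58 CPM. Spidr was higher in every Nr2e3-/- library than in every WT library (edgeR adjusted p = 0.197), the same direction as Cebpd. The WT mean of Cebpd was 6.51 CPM. The part of Spidr reads in the Cebpd counts was not tested. Cebpa shares 51 exon bases with Gm45091 and Prox1 shares 133 with Prox1os, each on the other strand. Onecut1 shares 2171 exon bases with Gm20649 on its own strand. Gm45091, Prox1os and Gm20649 were not analysed here.

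The summed granulocyte markers stood highest in the Nr2e3-/- libraries with the highest Cebpb and Cebpd. Of a list of 8 granulocyte genes, 3 passed the filter on low counts, all with overlapping groups. Their log2 fold changes were 2.65 for S100a8 and 2.30 for S100a9, but only 0.08 for Csf3r. Csf3r was at 1.57, 2.74 and 1.84 CPM in WT and 0.794, 3.49 and 2.055 CPM in Nr2e3-/- replicates 1 to 3. The list summed to between 3.47 and 5.55 CPM in WT and to 3.18, 26.3 and 15.4 CPM in Nr2e3-/- replicates 1, 2 and 3, the order of the Nr2e3-/- libraries seen for Cebpb and Cebpd. S100a8, a calcium-binding protein of granulocytes, accounted for 0.728, 8.61 and 5.57 CPM of these, and Mpo, which defines immature granulocytes, had 0 counts in the 3 WT libraries and at most 0.26 CPM in Nr2e3-/- libraries. Macrophage markers summed to between 333 and 418 CPM in WT and to 287, 737 and 381 CPM in Nr2e3-/- replicates 1, 2 and 3, with 0 of the 7 genes tested reaching an unadjusted p-value under 0.05. The part of these cells in the Cebpb and Cebpd values was not tested, and in bulk tissue fewer cells of a type cannot be told apart from less RNA per cell.

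Ratios of counts within a library do not depend on scaling between libraries, and they set the members of a family against each other. In all, 6 ratios were compared by an exact permutation test, in which 3 against 3 libraries cannot give a p-value below 0.1. The Cebpb/Cebpa ratio was 0.190, 0.219 and 0.176 in the WT libraries and 0.267, 0.740 and 0.571 in Nr2e3-/- replicates 1, 2 and 3. All Nr2e3-/- libraries were above all WT libraries, by 1.32 on the log2 scale (exact permutation test, two-sided, p = 0.1, adjusted p = 0.2 over the 6 ratios). The Cebpd/Cebpa ratio was also higher in every Nr2e3-/- library, by 1.48 (exact permutation p = 0.1, adjusted p = 0.2). The Cebpd/Cebpb ratio, in contrast, had overlapping groups that differed by 0.16 (exact permutation p = 0.5), so Cebpb and Cebpd kept nearly the same proportion in the measured means. Expressed per transcript length, Cebpa made up 71.6% to 76.0% of the summed C/EBPα, β and δ mRNA in WT tumors and 67.5%, 42.6% and 49.3% in Nr2e3-/- replicates 1, 2 and 3.

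**Figure D2:**
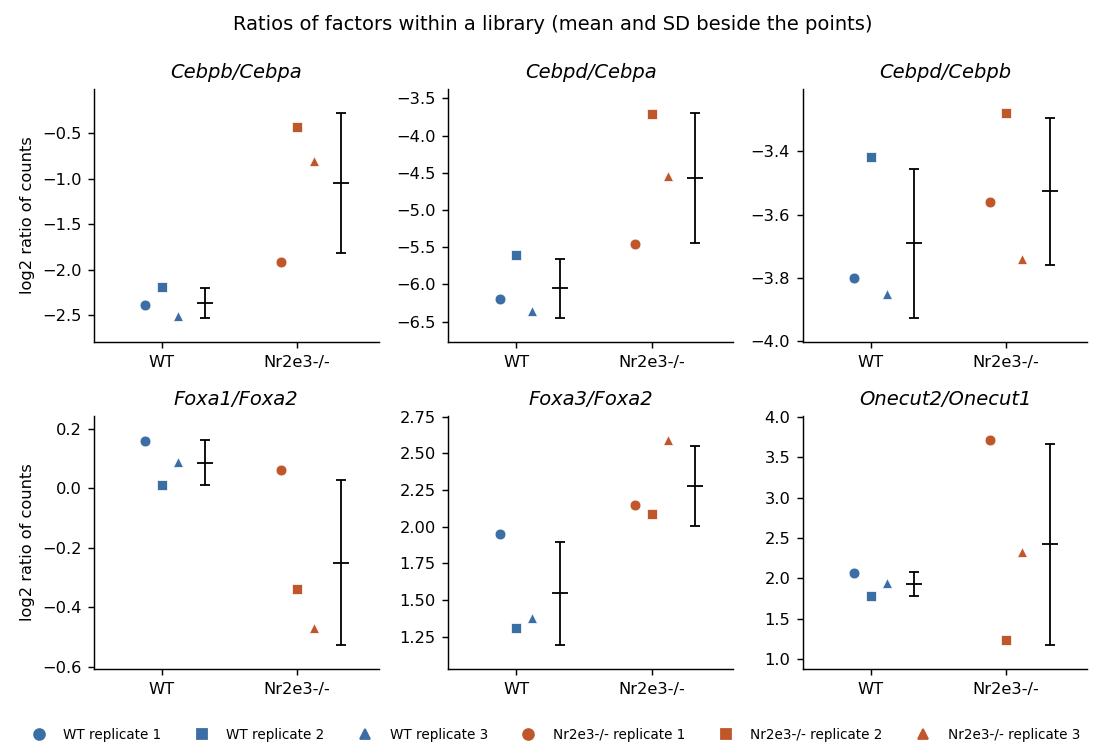
Log2 ratios of counts (y axes, scaled to each panel) of 6 pairs of factors in each library; marker shapes give the replicate, and the bars are the mean and SD of 3 libraries. Cebpb/Cebpa, Cebpd/Cebpa and Foxa3/Foxa2 were higher in all 3 Nr2e3-/- libraries, and the groups overlapped for the other 3 ratios.

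Among the forkhead factors, Foxa1 was lower in Nr2e3-/- tumors, Foxa2 had overlapping groups with a lower mean, and Foxa3 had overlapping groups with a higher mean. Foxa1 lies on chromosome 12 (57540628 to 57546916, minus strand). In WT tumors Foxa1 reached 32.3, 37.3 and 35.5 CPM, against 20.9, 25.4 and 20.4 CPM in Nr2e3-/- replicates 1 to 3. The gap between the groups exceeded the spread within either. Its log2 fold change was -0.66 ± 0.13 (SE, edgeR adjusted p = 0.093), 0.635 of the WT level, with adjusted p = 0.00192 from DESeq2 and 0.0172 from limma-voom, and its adjusted p-value was the lowest of the 9 factors in edgeR on all 6 libraries.

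Foxa2, on chromosome 2 (148042877 to 148046969, minus strand), is known for its roles in bile acid and glucose metabolism. The Foxa2 level was 28.9, 37.0 and 33.4 CPM in the 3 WT tumors, compared with 20.1, 32.1 and 28.2 CPM in Nr2e3-/- replicates 1 to 3, so the lower mean rested mainly on replicate 1. Its log2 fold change was -0.30 ± 0.19 (SE, edgeR adjusted p = 0.379) and -0.12 without that replicate (adjusted p = 0.523).

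Foxa3, on chromosome 7 (19013284 to 19023538, minus strand), is the Foxa factor most strongly expressed in adult liver. Foxa3 stood at 112, 92.0 and 87.0 CPM in the WT libraries, whereas Nr2e3-/- replicates 1 to 3 had 89.3, 137 and 170 CPM. Replicates 2 and 3 were above all WT libraries and replicate 1 lay among them. The log2 fold change of Foxa3 was 0.44 ± 0.23 (SE, edgeR adjusted p = 0.305), 0.67 without replicate 1 (adjusted p = 0.0269) and 0.22 without replicate 3 (adjusted p = 0.669). The Foxa3/Foxa2 ratio was 3.86, 2.48 and 2.60 in WT and 4.45, 4.24 and 6.01 in the Nr2e3-/- libraries, higher in all of these by 0.73 on the log2 scale (exact permutation p = 0.1, adjusted p = 0.2). The Foxa1/Foxa2 ratio had overlapping groups, with a difference of -0.34 (exact permutation p = 0.2). Per transcript length, Foxa3 accounted for 60.8% to 69.8% of the summed Foxa mRNA in WT and 73.3% to 80.9% in Nr2e3-/- tumors.

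Both Onecut genes had a lower mean in Nr2e3-/- tumors, but with different spreads. In WT tumors Onecut2 reached 118, 129 and 166 CPM, against 97.3, 77.8 and 98.7 CPM in Nr2e3-/- replicates 1 to 3, which did not overlap. Its log2 fold change was -0.59 ± 0.16 (SE, edgeR adjusted p = 0.13, 0.0389 from DESeq2), and the values without a single library ranged from -0.69 to -0.44. Onecut1 lies on chromosome 9 (74861921 to 74891781, plus strand). Its WT levels were 28.1, 37.6 and 43.3 CPM, whereas Nr2e3-/- replicates 1 to 3 had 7.41, 33.0 and 19.8 CPM. Replicate 1 was far below the other 5 libraries, with 112 counts, and replicate 2 lay inside the WT range. The log2 fold change of Onecut1 was -0.84 ± 0.47 (SE, edgeR adjusted p = 0.328), -0.44 without replicate 1 (adjusted p = 0.256) and -1.40 without replicate 2 (adjusted p = 0.181). The Onecut2/Onecut1 ratio was 4.20, 3.44 and 3.82 in WT and 13.1, 2.35 and 4.98 in Nr2e3-/- replicates 1, 2 and 3, and its difference turned from 0.49 to -0.15 on the log2 scale without replicate 1. A list of 9 bile duct markers, cells in which Onecut factors are also active, summed to between 63.0 and 141 CPM in WT and to 75.2, 439 and 197 CPM in Nr2e3-/- replicates 1, 2 and 3, of which Spp1 took 56.3, 410 and 171 CPM. Of the 7 duct markers tested, 2 passed 0.05 before adjustment as higher and 1 as lower, against 11.8% and 9.72% of all genes, and all had overlapping groups. The defining duct keratins Krt7 and Krt19 were between 0.52 and 1.79 CPM in every library.

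Prox1, on chromosome 1 (190118035 to 190170714, minus strand), is known in hepatocytes as a corepressor of the nuclear receptors Nr5a2 and Hnf4a on genes of bile acid synthesis. The Prox1 level was 43.4, 54.9 and 54.2 CPM in the 3 WT tumors, compared with 80.4, 79.0 and 137 CPM in Nr2e3-/- replicates 1 to 3. All Nr2e3-/- libraries, replicate 1 included, were above all WT libraries, and replicate 3 was the highest. Its log2 fold change was 0.96 ± 0.23 (SE, edgeR adjusted p = 0.113), a 1.94-fold difference, with adjusted p = 0.00606 from DESeq2 and 0.018 from limma-voom, and it was 0.65 without Nr2e3-/- replicate 3 (edgeR adjusted p = 0.338). Of 6 lymphatic endothelial markers, Ccl21a had 0 counts in all 6 libraries and Pdpn at most 0.53 CPM. The 6 genes summed to between 190 and 240 CPM in WT and between 130 and 201 CPM in Nr2e3-/- tumors. Reln took the largest part, with 170.7, 107.9 and 121.2 CPM in WT and 115.7, 82.53 and 58.51 CPM in Nr2e3-/- replicates 1 to 3. Lyve1, which sinusoidal endothelium also expresses, was higher in all 3 Nr2e3-/- libraries (log2 fold change 0.82, edgeR adjusted p = 0.111). Mmrn1 was also higher in all 3 (log2 fold change 1.35, edgeR adjusted p = 0.174), but at low levels. Its mean was 0.287 CPM in WT and 0.741 CPM in Nr2e3-/- tumors. Flt4, the receptor for lymphatic growth factors, was lower in all 3 Nr2e3-/- libraries (log2 fold change -0.59, edgeR adjusted p = 0.281), and Reln had -0.64 with overlapping groups. The part of duct and lymphatic cells in the Onecut and Prox1 values was not tested. Cyp7a1, the rate-limiting enzyme of bile acid synthesis and a known target of Prox1 repression, had 121 ± 44.1 CPM (SD, n = 3) in WT and 55.6 ± 38.5 CPM (SD, n = 3) in Nr2e3-/- tumors, with overlapping groups (log2 fold change -1.12, adjusted p = 0.287 from edgeR). Whether the Cyp7a1 level is related to that of Prox1 was not tested.

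**Figure D3:**
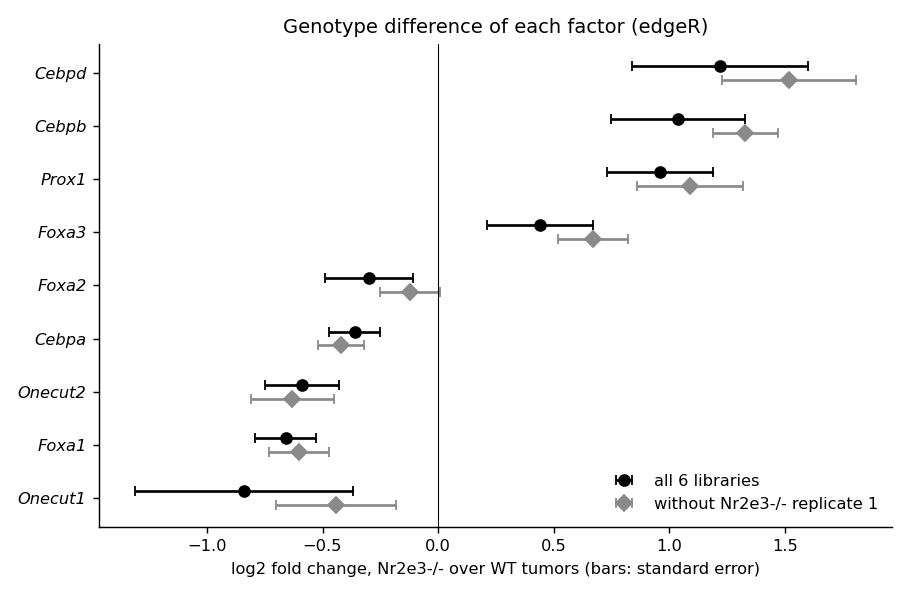
Log2 fold change of Nr2e3-/- over WT tumors (x axis) with its standard error for each factor from edgeR, with all 6 libraries (black circles) and without Nr2e3-/- replicate 1 (grey diamonds). Cebpd, Cebpb, Prox1 and Foxa3 lie above 0 and Foxa2, Cebpa, Onecut2, Foxa1 and Onecut1 below 0 in both fits, and Onecut1 moved from -0.84 to -0.44.

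Levels of different genes were compared per length, as normalized CPM per kb of the longest annotated transcript. In WT tumors Cebpa stood highest at 161 ± 1.72 CPM per kb (SD, n = 3), above Cebpb at 54.8 ± 5.57 and Foxa3 at 47.6 ± 6.42, whose ranges overlapped. Foxa2 followed at 15.6 ± 1.91, above Foxa1 at 11.0 ± 0.80. The ranges of Foxa1, Onecut1 (9.18 ± 1.95) and Onecut2 (8.48 ± 1.53) overlapped from each to the next, and Prox1 at 6.43 ± 0.81 and Cebpd at 1.74 ± 0.48 stood below them. In Nr2e3-/- tumors the ranges of Cebpa (126 ± 11.2 CPM per kb) and Cebpb (112 ± 44.0) overlapped, and Cebpb was above Cebpa in replicate 2, at 151 against 117 CPM per kb. Prox1 stood at the fifth place in the order of the means and not at the eighth as in WT, at 12.5 ± 4.18 CPM per kb, with a range that overlapped that of Foxa2. Onecut2 has an annotated transcript of 16234 bases, and without division by length its CPM exceeded that of Foxa1 in all 6 libraries.

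**Figure D4:**
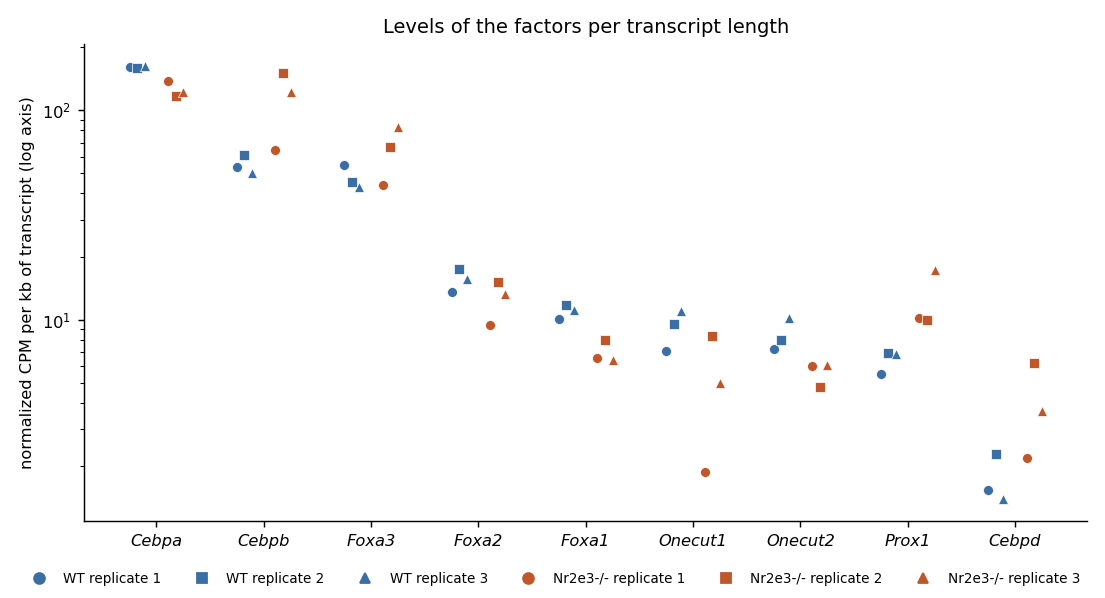
Normalized CPM per kb of the longest transcript (log axis) of each factor in the 3 WT and 3 Nr2e3-/- libraries, ordered by the WT mean; marker shapes give the replicate. Cebpa is highest in WT at 161 CPM per kb, and the Cebpb values of Nr2e3-/- replicates 2 and 3 reach the level of Cebpa.

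Other transcription factors of hepatocytes, taken as a list of 16, differed in both directions. All 16 were tested, with a median log2 fold change of 0.32 against 0.01 over all genes. Before adjustment 7 of the 16 passed 0.05, with 5 higher and 2 lower, against 21.5% of all genes, and after adjustment 0 did (4 without Nr2e3-/- replicate 1, against 21.8% of all genes). The groups of the same 7 did not overlap. Among the higher were Zbtb20 (log2 fold change 1.31) and Zhx2 (0.48), both known as repressors of the fetal gene Afp, and Hnf4a (0.50) and Nr5a2 (0.40), central regulators of metabolic and bile acid genes. Hnf4a stood at 854, 805 and 786 CPM in the WT libraries, whereas Nr2e3-/- replicates 1 to 3 had 904, 1152 and 1398 CPM. Lower were Hhex, a homeobox factor of the liver bud, and Gata4, an early partner of Foxa factors (-0.30). In WT tumors Hhex reached 93.8, 108 and 124 CPM, against 56.8, 45.9 and 33.9 CPM in Nr2e3-/- replicates 1 to 3, a log2 fold change of -1.26 ± 0.20 (SE, edgeR adjusted p = 0.0909).

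The 10 further bZIP factors, relatives of C/EBP or dimer partners and rivals at related motifs, had a median log2 fold change of -0.08. Before adjustment 2 passed 0.05 as higher and 2 as lower, against 11.8% and 9.72% of all genes, and after adjustment 0 did (7 without Nr2e3-/- replicate 1, against 21.8% of all genes). The groups of these 4 did not overlap. Nfil3 is a repressor known from circadian and immune control, and its WT levels of 7.91, 9.13 and 9.78 CPM compared with 13.2, 45.6 and 46.1 CPM in Nr2e3-/- replicates 1 to 3, or 1.97 on the log2 scale (edgeR adjusted p = 0.102). Dbp, an activator that binds the same sites as Nfil3, had -0.51. Cebpz, which despite its name has no bZIP domain and acts in the nucleolus, had 0.64 and Cebpe, a granulocyte factor, had -0.84, with WT levels of 8.11 ± 0.29 CPM (SD, n = 3) and Nr2e3-/- levels of 4.54 ± 1.12 CPM (SD, n = 3). Cebpe was at 5.76, 4.31 and 3.57 CPM in Nr2e3-/- replicates 1 to 3. It was thus at its lowest in replicates 2 and 3, in which the granulocyte markers S100a8 and S100a9 were at their highest. Whether these levels are related was not tested.

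Hepatocyte genes with known C/EBP or FOXA sites in their regulatory regions, a list of 18, centred on a log2 fold change of 0.06 (median), with 10 above and 8 below 0. Before adjustment 3 (16.7%) passed 0.05, against 21.5% of all genes, and after adjustment 0 did (1 without Nr2e3-/- replicate 1, against 21.8% of all genes). Tat, which starts tyrosine breakdown, had 684 ± 99.4 CPM (SD, n = 3) in WT and was at 2451, 874 and 1736 CPM in Nr2e3-/- replicates 1, 2 and 3 (log2 fold change 1.30). Gys2, the liver glycogen synthase, had a log2 fold change of -0.49 without overlap of the groups. Alb, Ttr and Apoa1, the classical C/EBP and FOXA targets, had log2 fold changes of -0.27, -0.07 and -0.02 with overlapping groups.

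Genes of the interleukin-6 and STAT3 response, a pathway known to induce Cebpb and Cebpd, were mostly higher in Nr2e3-/- tumors. All 12 had a positive log2 fold change with a median of 0.93, and 10 passed 0.05 before adjustment, against 11.8% of all genes higher. After adjustment 0 of the 12 passed with all libraries, and 10 did without Nr2e3-/- replicate 1, against 12.2% of all genes higher. Non-overlapping groups were found for 6 of the 12, against 13.9% of all genes higher. The list was chosen with earlier results of these data known, so these shares are a description and no independent support. Nfkbiz had a log2 fold change of 0.06 and Lcn2 of 0.77, both with overlapping groups (edgeR unadjusted p = 0.832 and 0.576). Socs3, the feedback inhibitor of this pathway, had WT levels of 11.7, 9.84 and 10.7 CPM, against 5.30, 96.5 and 54.0 CPM in Nr2e3-/- replicates 1 to 3. Socs3 thus had its highest values where Cebpb and Cebpd had theirs, and in replicate 1 it lay below WT. Whether the levels of Cebpb and Cebpd are related to this pathway was not tested. The receptor genes Il6ra (log2 fold change 0.98), Il6st (0.81), Osmr (1.85) and Il1r1 (2.66) and the factor Stat3 itself (0.86) were higher in all 3 Nr2e3-/- libraries, as was the kinase gene Pim1 (1.23). In replicate 1, Il6st (192.5 CPM) and Osmr (11.45 CPM) stood just above their highest WT values of 188.9 and 10.42 CPM. Stat3 was at 213.1 against 184.0 CPM and Pim1 at 9.73 against 7.11 CPM. Il6ra (78.45 against 46.99 CPM) and Il1r1 (123.9 against 73.01 CPM) stood further above WT in that replicate. Stromal and endothelial markers, a further list of 10, had a median of -0.25, with 0 higher and 1 lower (Kdr, log2 fold change -0.61) at an unadjusted p-value under 0.05.

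**Figure D5:**
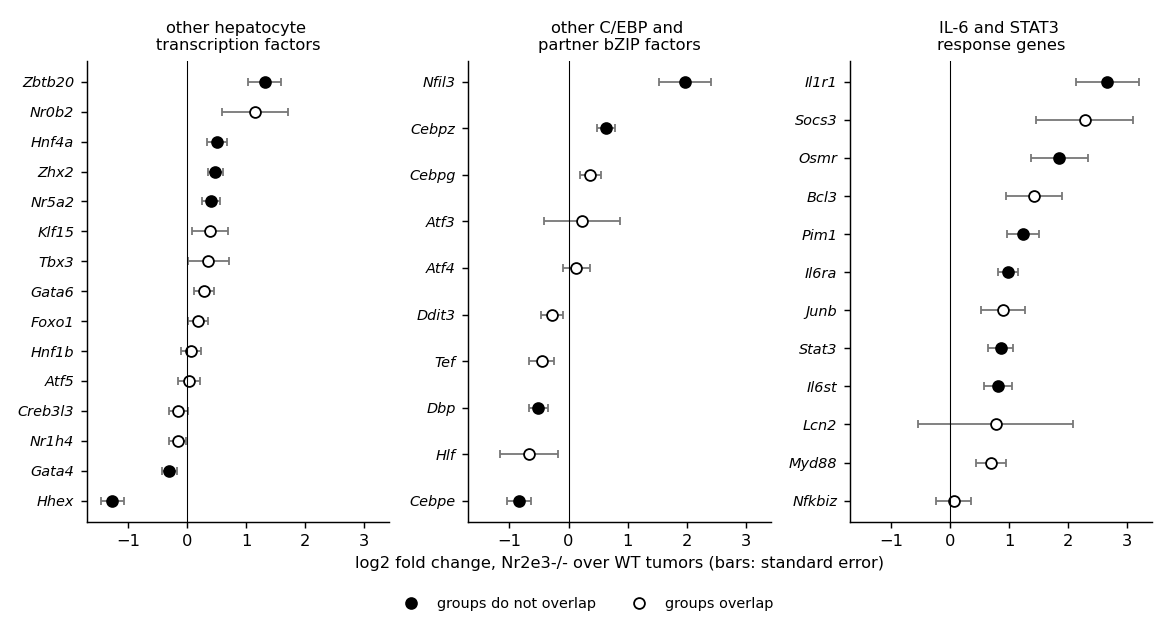
Log2 fold change of Nr2e3-/- over WT tumors (x axis) with its standard error for genes of 3 lists from edgeR; filled points mark genes whose groups did not overlap and open points those whose groups did. All 12 interleukin-6 and STAT3 response genes lie above 0, whereas the other hepatocyte factors and the bZIP factors lie on both sides of 0.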

How the data were processed

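RNA was extracted from liver tumors of 3 WT and 3 Nr2e3-/- mice and made into TruSeq libraries. Per the study's methods, the authors used TopHat (mm10) for alignment of the single-end reads and FeatureCounts for counting per gene, and the deposited counts are raw and not normalized. Versions, gene annotation and strand setting are not given in the sources used here. The deposited size-factor scaled copy of the counts and the authors' DESeq2 comparison (log2 fold changes and p-values) were not used.

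The fit, made in R 4.3.3 with edgeR 4.0.16, used filterByExpr (minimum count 10, minimum total count 15), TMM normalization and a quasi-likelihood F test, which is two-sided, and p-values were adjusted by Benjamini-Hochberg over 13572 genes. Standard errors were set so that the squared ratio of fold change to error equals the F statistic. The alternatives were RLE and upper quartile normalization, DESeq2 1.42.0, limma-voom (limma 3.58.1) with weighted samples, a laxer filter of 1 count, a stricter one of 10 counts per library, a fit blocked on replicate number, and the omission of each library in turn. The fit was tested on simulated counts. Ratios used a pseudocount of 0.5. Gene models came from GENCODE (GRCm38) and promoters from RefSeq. The longest transcript may not be the one expressed, so levels per length are approximate. Replicates are separate libraries, and p-values measure the spread between them. The factors and gene lists, written by hand, were chosen with earlier results of these data known. All 9 factors are named, with list genes of an unadjusted p-value under 0.05 and non-overlapping groups, or otherwise the extremes of a list. Other genes were named after their values were seen: Socs3, Nfkbiz, Lcn2, Cyp7a1, Alb, Ttr, Apoa1, Krt7, Krt19, Spp1, S100a8, S100a9, Csf3r, Mpo, Pdpn, Ccl21a, Flt4, Reln, Klf15, Nr0b2, Tmem189 and Spidr. The macrophage marker Adgre1 was not analysed here. Some genes of the lists are counted but not reported singly here.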

Additional observations from a re-analysis of the deposited data

How the results depend on the processing

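The direction of all 9 factors was the same in every alternative fit, while the sizes and the side of the threshold differed. With DESeq2, the log2 fold changes that passed an adjusted p-value of 0.05 were -0.65 for Foxa1, -0.35 for Cebpa (adjusted p = 0.0499), 1.05 for Cebpb, 1.23 for Cebpd, -0.58 for Onecut2 and 0.97 for Prox1. With limma-voom they were -0.70 for Foxa1, -0.38 for Cebpa, 1.08 for Cebpb, 1.17 for Cebpd and 1.19 for Prox1. Leaving out a library gave ranges of -0.76 to -0.59 for Foxa1, -0.45 to -0.12 for Foxa2, 0.22 to 0.67 for Foxa3, -0.42 to -0.30 for Cebpa, 0.77 to 1.33 for Cebpb, 0.76 to 1.52 for Cebpd, -1.40 to -0.44 for Onecut1, -0.69 to -0.44 for Onecut2 and 0.65 to 1.10 for Prox1, and calls were made only without Nr2e3-/- replicate 1. The number of genes with an adjusted p-value under 0.05 went from 13 to 8 with upper quartile normalization, 1093 with DESeq2, 2360 with limma-voom, 70 with no filter beyond 1 count and 7 with at least 10 counts in every library, and ranged from 0 to 3022 when a library was left out, with 3022 without Nr2e3-/- replicate 1. At an unadjusted p-value under 0.05 the number went from 2916 to 4981 with limma-voom and ranged from 1693 to 5220 when a library was left out. Of these genes 54.8% were higher in Nr2e3-/- tumors, and 38.2% with upper quartile normalization, which shifted the median of all genes from 0.007 to -0.079. The cause of these differences was not tested.

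The replicate number as a block gave 0 genes with an adjusted p-value under 0.05 (2438 unadjusted) and called 0 factors, with Cebpb at 0.96 and Onecut1 at -1.05. Deviations of libraries of the same number had correlations of -0.077, 0.221 and 0.023. Libraries of different number reached from -0.265 (WT replicate 3 with Nr2e3-/- replicate 2) to 0.225 (WT replicate 3 with Nr2e3-/- replicate 1). With 3 libraries per genotype, these values cannot decide whether the numbers pair the mice.

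List medians moved by more than the spread between libraries for bZIP factors (-0.30 with limma-voom), hepatocyte markers (-0.03 with upper quartile normalization) and lymphatic markers (-0.14 with DESeq2, -0.16 without a filter, -0.61 with at least 10 counts in every library). Leaving out a library gave medians of -0.35 to 0.24 for lymphatic, -0.19 to 0.55 for macrophage and -0.54 to -0.01 for stromal and endothelial markers. The Onecut2/Onecut1 difference turned to -0.15 without Nr2e3-/- replicate 1, within a range of -0.15 to 1.08. Total counts of 15376261 or more left Cebpd, with 124 to 629 counts, and Onecut1, with 112 counts in a library, the least precisely counted factors.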

Other observations

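The genes whose log2 CPM was most like that of each factor over the 6 libraries were taken from 9651 genes with a mean of at least 5 CPM, as a description without a test. With 6 libraries in 2 groups, a Pearson correlation above 0.95 was reached by 501 genes for Cebpb, by 201 for Cebpa, by 150 for Cebpd and by 121 for Foxa3, but by 13 for Foxa2 and 21 for Onecut1, so a high value singles out little for the first of these. The nearest gene to Cebpb was Tcof1 (r = 0.9985), a nucleolar factor of ribosomal RNA synthesis, and the nearest to Cebpa was Pfkm (r = 0.9982), a phosphofructokinase, which had 22.4 CPM in WT and 11.4 in Nr2e3-/- tumors on average. Fgl1, a protein secreted by hepatocytes, was nearest to Cebpd (r = 0.9948), with 174 and 669 CPM on average in WT and Nr2e3-/- tumors. Foxa1 was closest to Tspan15 (r = 0.9898), Foxa2 to Ankrd12 (0.989), Foxa3 to Rnf185 (0.9982) and Prox1 to Msl3 (0.9886). For Onecut1 the nearest genes were Rev1 (0.9938) and Cish (0.9934), the latter a feedback gene of cytokine and growth hormone signaling with 40.2 CPM in WT and 17.5 in Nr2e3-/- tumors on average. Onecut2 was closest to Smad9 (0.9959), a mediator of BMP signaling, with 26.6 CPM in WT and 10.1 in Nr2e3-/- tumors. All these values come from the same 6 libraries, which also differ in depth and group.

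Klf15 and Nr0b2, factors from the list of hepatocyte regulators, had their highest value in the Nr2e3-/- library that lay nearest to WT for most genes. Klf15 was at 203, 83.8 and 128 CPM and Nr0b2 at 24.9, 5.05 and 19.4 CPM in Nr2e3-/- replicates 1, 2 and 3, against ranges of 96.1 to 120 and 5.03 to 11.0 CPM in WT. These 2 genes were chosen after their values were seen.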
